A study of Homo sapiens with 21 samples.

Results

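The interferon regulatory factors (IRFs) are a family of transcription factors, and the array platform annotation assigned 11 probe sets to 8 of its genes: IRF1, IRF2, IRF3, IRF4, IRF5, IRF7, IRF8 and IRF9. These were all the probe sets whose only annotated symbol was one of these 8, out of 19724 probe sets with a single symbol that were tested together. IRF4 was read by 3 probe sets, IRF5 by 2 and every other member by 1. RNA was measured in 3 human myeloid leukaemia cell lines on high-throughput Affymetrix gene expression arrays, on which each transcript is read by sets of short probes. MOLM-14 is a monocytic line with an internal tandem duplication in FLT3, U937, also monocytic, derives from a histiocytic lymphoma, and HL-60 cells are promyelocytic. All lines carried a short hairpin RNA against luciferase (shLuc, the control) on 3 arrays, hairpin shSYK_1 on 2 arrays and hairpin shSYK_2 on 2 arrays, 21 arrays in 9 groups. Both SYK hairpins target the cytoplasmic tyrosine kinase SYK. All cells, controls included, were selected with puromycin at 1 µg/ml from 48 h after infection, and RNA was taken on day 5. Per the labels, the replicates were separate transductions of the same lines, so the p-values below measure the spread between transductions and say nothing about other lines or patients.

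IRFs share an N-terminal DNA-binding domain that recognises GAAA repeats, the core of the interferon-stimulated response element. IRF3 and IRF7 are latent factors that are phosphorylated downstream of nucleic acid sensors and switch on type I interferon genes, and IRF5 acts downstream of MYD88 on inflammatory cytokine genes. IRF9 is the DNA-binding subunit of ISGF3, a transcription factor complex that forms after type I interferon. IRF1 is an interferon-gamma-induced activator, and IRF2 competes with it for the same sites. IRF4 and IRF8 are blood lineage factors that bind composite sites with PU.1, and IRF8 directs progenitors towards monocytes and dendritic cells.

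The hairpins are shown here because the results below differ between them. Each target sequence is 21 bases long, written 5′ to 3′ as DNA and taken from the labels.
shLuc: cctaaggttaagtcgccctcg
shSYK_1: gcagcagaacagacatgtcaa
shSYK_2: gcaggccatcatcagtcagaa

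Values are log2 intensities, and changes are differences of group means on that scale. A probe set rose, fell or was called where limma's Benjamini-Hochberg adjusted p over all 19724 probe sets was below 0.05, and the percentage of all probe sets called in the same comparison is given beside the count of IRF probe sets. The SYK hairpins left 21.7% of the control SYK intensity on average over the lines, on the brighter of its 2 probe sets (log2 change -2.21, SE 0.0404, limma adjusted p = 9.59e-16). On that probe set SYK was lower with shSYK_2 than with shSYK_1 by 0.45 (limma adjusted p = 3.97e-06). One array, HL-60 shSYK_2 replicate 1, has conflicting labels, since the source name gives shSYK_1 while shSYK_2 stands in the title and treatment and is used here. It also had the lowest upper quartile of intensity of all arrays, 122.3 against 134.5 to 139.8. Many, though not all, of the values that rest on it are therefore given also without it or with it placed in shSYK_1. The granulocyte and monocyte genes CEBPA and ELANE were bright in all lines (means of 10.35 to 10.72 and 11.60 to 12.41). The myeloid genes SPI1, which encodes PU.1, and CSF1R were dim (means of 4.41 to 4.99 and 4.01 to 4.45). MPO and CD14 were brightest in HL-60 (means of 12.49 and 7.91) and lower in MOLM-14 (5.67 and 3.14) and U937 (3.34 and 2.77). ITGAM had means of 6.07 to 6.82. No measured marker of B cells (4), T cells (5) or erythroid cells (4) exceeded 4.30 on any array. Of the plasmacytoid dendritic cell markers, LILRA4 and GZMB stayed at or below 3.85, while IL3RA and TCF4 reached 7.36 and 7.82.

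In the control arrays several IRF genes differed between the lines, and MOLM-14 held the highest levels of IRF1, IRF7, IRF8 and IRF9. IRF8 was the steepest, at 11.05 ± 0.0196 (SD, n = 3) in MOLM-14, with a mean of 9.62 and arrays from 9.57 to 9.67 in U937 (n = 3), and lowest in HL-60 at 8.56 ± 0.0226 (n = 3). Each step of that order exceeded the spread: MOLM-14 was 2.69-fold above U937 and U937 was 2.09-fold above HL-60 (limma adjusted p = 1.38e-12 and 8.50e-11). IRF1, read on a different probe set and so not comparable in level with IRF8, followed the same order of lines, with means of 6.82, 5.79 and 5.33. IRF7 stood at 5.81 in MOLM-14, 1.31 above U937 and 1.19 above HL-60, and IRF9 at 6.18, which was 0.86 and 0.82 above those lines. For IRF7 and IRF9, U937 and HL-60 did not differ beyond the spread: the intervals of U937 minus HL-60 were -0.29 to 0.06 and -0.26 to 0.17. IRF5, on its brighter probe set, ran in another order, highest in U937 (5.53), then HL-60 (4.62) and MOLM-14 (4.24). IRF2 was 0.36 higher in MOLM-14 than in U937 (limma adjusted p = 0.00445). The lower IRF5 of MOLM-14 against HL-60 (-0.38, limma adjusted p = 0.0171) lost its call without any 1 of MOLM-14 shLuc replicate 2, HL-60 shLuc replicate 2 or HL-60 shLuc replicate 3 (-0.32, -0.30 and -0.29). IRF2 in MOLM-14 against HL-60 (0.25, limma adjusted p = 0.0431) lost it under 16 of 32 alternatives, among them leaving out MOLM-14 shLuc replicate 1 or 3, HL-60 shLuc replicate 1 or 3, or any SYK hairpin array of MOLM-14 or any shSYK_1 array of HL-60 (0.18 to 0.25). IRF3 gave 5.96, 6.08 and 5.88 and differed between no pair of lines by this test. In all, 6 of 11 IRF probe sets were called between MOLM-14 and U937, where 48.2% of all probe sets were called, 7 of 11 between MOLM-14 and HL-60 (45.4%) and 3 of 11 between U937 and HL-60 (49.6%). Among the 7 between MOLM-14 and HL-60 was a dim IRF4 probe set (-0.22, limma adjusted p = 0.0179). With each array centred on its median, the count between U937 and HL-60 was 7. The median of all probe sets in the comparisons with HL-60 then moved from about -0.05 to -0.19 or -0.20.

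**Figure D1:**
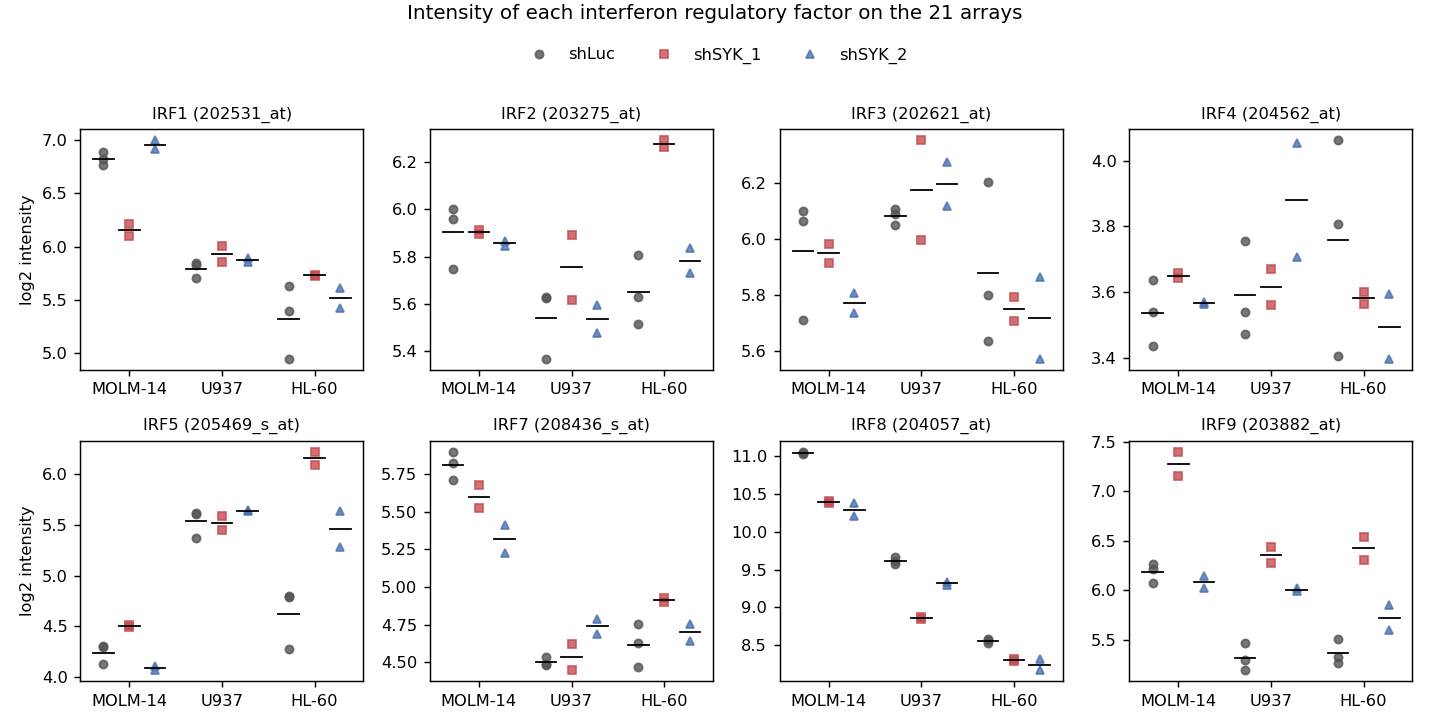
Log2 intensity of each IRF gene on its brightest probe set (vertical axes, scaled to each panel) for the 21 arrays, by line and hairpin; each point is an array and each bar a group mean. IRF8 falls from MOLM-14 to HL-60 and lies lower with both SYK hairpins in every line, while the shSYK_1 arrays of IRF9 lie above the shLuc arrays in every line.

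IRF8, the monocyte and dendritic cell lineage factor, fell with SYK knockdown in every line and with either hairpin. In MOLM-14 it read 11.03, 11.07 and 11.05 with shLuc, 10.39 and 10.41 with shSYK_1, and 10.21 and 10.38 with shSYK_2. In U937 the values were 9.67, 9.62 and 9.57 with shLuc, 8.87 and 8.84 with shSYK_1, and 9.29 and 9.34 with shSYK_2. In HL-60 they were 8.56, 8.58 and 8.53, then 8.31 and 8.29, then 8.17 and 8.31. In each line every knockdown array was below every control array. The mean of both hairpins left 0.616 of the control intensity in MOLM-14 (-0.70, SE 0.0560, limma adjusted p = 4.89e-07), 0.690 in U937 (-0.53, limma adjusted p = 6.46e-06) and 0.819 in HL-60 (-0.29, limma adjusted p = 0.00117). The order of the falls of this mean, though of neither hairpin alone, followed the order of the control levels. The fall in MOLM-14 was 0.41 larger than in HL-60 (SE 0.0791, limma adjusted p = 0.00450), whereas MOLM-14 minus U937 was -0.16 (95% interval -0.33 to 0.00) and U937 minus HL-60 -0.25 (95% interval -0.41 to -0.08), neither called (limma adjusted p = 0.365 and 0.0867).

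The hairpins divided the IRF8 response differently in the lines. In U937 IRF8 fell by 0.77 with shSYK_1 and by 0.30 with shSYK_2, a difference of 0.46 (SE 0.0733, limma adjusted p = 2.05e-04). In MOLM-14 the falls were 0.65 and 0.75, and in HL-60 0.26 and 0.32, with intervals of the hairpin difference of -0.26 to 0.05 in MOLM-14 and -0.22 to 0.09 in HL-60. With shSYK_2 alone IRF8 fell further in MOLM-14 than in U937 (difference -0.45, limma adjusted p = 0.0107) and than in HL-60 (-0.43, limma adjusted p = 0.00987). With shSYK_1 alone it fell further in U937 than in HL-60 (-0.51, limma adjusted p = 0.00305) and in MOLM-14 than in HL-60 (-0.39, limma adjusted p = 0.0215), with an interval of -0.08 to 0.32 for MOLM-14 minus U937. The last of these lost its call without any 1 of the 4 shSYK_1 arrays of the 2 lines (-0.38 to -0.40). Both shSYK_2 differences lost their call without MOLM-14 shSYK_2 replicate 1 (-0.36 and -0.35, limma adjusted p = 0.0896 and 0.0771), and the first also without U937 shSYK_2 replicate 2 (-0.43, limma adjusted p = 0.0590). These single-hairpin differences between lines were chosen after the other values had been seen. In HL-60 the fall with shSYK_1 lost its call without replicate 1 or 2 of that group (limma adjusted p = 0.0512 and 0.0714), and the fall with shSYK_2 without the array whose labels conflict (-0.25, limma adjusted p = 0.0622). The U937 fall with shSYK_2 lost it without replicate 1 of that group (-0.28, limma adjusted p = 0.0587). The MOLM-14 falls with either hairpin and the U937 fall with shSYK_1 stayed called under every alternative run.

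IRF9, the DNA-binding subunit of ISGF3, rose, and mostly with shSYK_1. In MOLM-14 it read 6.26, 6.07 and 6.21 with shLuc, 7.16 and 7.40 with shSYK_1, and 6.02 and 6.14 with shSYK_2. In U937 it read 5.19, 5.30 and 5.46, then 6.43 and 6.28, then 6.02 and 5.99. In HL-60 it read 5.51, 5.26 and 5.33, then 6.31 and 6.54, then 5.59 and 5.85. The shSYK_1 arrays were above all control arrays in each line, while of the shSYK_2 arrays of MOLM-14 one (6.02) lay below the controls and the other among them. With shSYK_1 the rise was 1.10 in MOLM-14, 1.04 in U937 and, for HL-60, 1.06, about the same size in each (SE 0.114 each; limma adjusted p = 2.35e-06, 7.57e-06 and 2.89e-06). The differences between these 3 rises had intervals of -0.28 to 0.40, -0.30 to 0.38 and -0.36 to 0.32. With shSYK_2 IRF9 rose by 0.69 in U937 (limma adjusted p = 4.70e-04) and by 0.36 in HL-60 (limma adjusted p = 0.0371), and the MOLM-14 change was -0.10 (95% interval -0.34 to 0.14). The shSYK_2 response in MOLM-14 was 0.79 below that in U937 (SE 0.161, limma adjusted p = 0.00873). It lost this call without MOLM-14 shSYK_2 replicate 1 (-0.72, limma adjusted p = 0.0576).

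Set against each other, the hairpins differed in IRF9 by -0.75 on average (shSYK_2 minus shSYK_1, SE 0.0718, limma adjusted p = 3.80e-07). SYK differed by -0.45 and -0.15 on its 2 probe sets (limma adjusted p = 3.97e-06 and 0.0340). In HL-60 the SYK difference was called on neither (-0.24 and 0.11, limma adjusted p = 0.0852 and 0.450). Whether SYK levels bear on the IRF9 difference was not tested. The IRF9 difference was -1.20 in MOLM-14 (limma adjusted p = 1.97e-06), -0.70 in HL-60 (limma adjusted p = 7.43e-04) and -0.35 in U937 (limma adjusted p = 0.0571, not called). Averaged over both hairpins, IRF9 rose 1.41-fold in MOLM-14, 1.63-fold in HL-60 and 1.82-fold in U937, called in each. The HL-60 rise with shSYK_2 was the least certain: it lost its call when HL-60 shLuc replicate 2 or 3 was left out (0.30 and 0.34, limma adjusted p = 0.116 and 0.0897) and when HL-60 shSYK_2 replicate 2 was (0.23, limma adjusted p = 0.239). With the conflicting array left out it was 0.48 (limma adjusted p = 0.0393), and with that array placed in shSYK_1 it was 0.48 and not called (limma adjusted p = 0.351). With the array so placed, the HL-60 hairpin difference was -0.30 (limma adjusted p = 0.708).

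IRF5, which acts downstream of MYD88, rose in HL-60. Its brighter probe set read 4.28, 4.79 and 4.80 with shLuc, 6.22 and 6.09 with shSYK_1, and 5.63 and 5.28 with shSYK_2 in that line. All 4 knockdown arrays were above the 3 controls. The rise was 1.54 with shSYK_1 (2.90-fold, SE 0.137, limma adjusted p = 3.53e-07) and 0.84 with shSYK_2 (1.78-fold, limma adjusted p = 4.61e-04), and the hairpins differed by -0.70 (limma adjusted p = 0.00348). In MOLM-14 the arrays read 4.29, 4.12 and 4.30, then 4.51 and 4.49, then 4.07 and 4.11. U937 gave 5.62, 5.37 and 5.61, then 5.59 and 5.45, then 5.64 and 5.64. Neither of these lines passed the test, and the response of HL-60 exceeded that of MOLM-14 by 1.13 (limma adjusted p = 3.83e-04) and that of U937 by 1.14 (limma adjusted p = 4.77e-04). IRF5 with shSYK_2 was 0.66 without the conflicting array (limma adjusted p = 0.0190) and 0.66 with it placed in shSYK_1, where it was not called (limma adjusted p = 0.0979). The second IRF5 probe set was dim, between 2.90 and 3.83, and was called in no knockdown comparison. In HL-60 the monocyte marker CD14 also rose, by 2.39, and ITGAM, an integrin of mature myeloid cells, by 1.16. In MOLM-14 and U937 the changes of CD14 were 0.09 and 0.05, not called, and those of ITGAM 0.47 and 1.28, both called. Of the 7 measured myeloid markers 2 rose and 2 fell in HL-60, where 9.41% of all probe sets rose and 11.9% fell. Those that fell were MPO (-0.54) and CEBPA (-0.18). The part of these markers in the IRF5 result was not tested. In cells measured in bulk, fewer cells of a type and less RNA per cell cannot be told apart.

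IRF7, the interferon-inducible activator of type I interferon genes, fell in MOLM-14. In MOLM-14 it read 5.71, 5.82 and 5.90 with shLuc, 5.52 and 5.68 with shSYK_1, and 5.41 and 5.22 with shSYK_2. All 4 knockdown arrays lay below the controls, and the fall was 0.35 for both hairpins together (SE 0.0782, limma adjusted p = 0.00458) and 0.49 for shSYK_2 alone (limma adjusted p = 0.00163). With shSYK_1 alone the change was -0.21 and not called (limma adjusted p = 0.130). Without MOLM-14 shSYK_2 replicate 2 the shSYK_2 value was -0.40 (limma adjusted p = 0.0505). In HL-60 the controls read 4.63, 4.47 and 4.76 and the shSYK_1 arrays 4.93 and 4.90, a rise of 0.30 (limma adjusted p = 0.0304). It lost its call without HL-60 shLuc replicate 1 or 2 or either shSYK_1 array (0.30, 0.23, 0.29 and 0.31), with median centring and with quantile normalisation, and with the conflicting array placed in shSYK_1 (0.21, limma adjusted p = 0.162). U937 was between 4.45 and 4.79 and passed no test. The MOLM-14 response was below that of HL-60 by 0.54 (limma adjusted p = 0.00670) and below that of U937 by 0.49 (limma adjusted p = 0.0238). The difference from U937 lost its call without any 1 of 8 arrays, among them MOLM-14 shLuc replicate 3 and U937 shLuc replicate 1 (-0.44 and -0.48). These 8 were MOLM-14 shLuc replicates 2 and 3, MOLM-14 shSYK_1 replicate 1, MOLM-14 shSYK_2 replicate 2, U937 shLuc replicates 1 and 2, U937 shSYK_1 replicate 2 and U937 shSYK_2 replicate 1.

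IRF1, the interferon-gamma-induced activator, changed in MOLM-14 with 1 hairpin. Its MOLM-14 arrays read 6.76, 6.82 and 6.89 with shLuc, 6.10 and 6.21 with shSYK_1, and 7.00 and 6.91 with shSYK_2. The shSYK_1 arrays lay below the controls and the shSYK_2 arrays just above them. The fall with shSYK_1 was 0.67 (0.628 of control, SE 0.135, limma adjusted p = 0.00143), the shSYK_2 change was 0.13 (95% interval -0.15 to 0.42), and the hairpins differed by 0.80 (limma adjusted p = 6.10e-04). The shSYK_1 response of MOLM-14 was 0.81 below that of U937 (limma adjusted p = 0.0149) and 1.08 below that of HL-60 (limma adjusted p = 0.00233). Without MOLM-14 shSYK_1 replicate 1 or U937 shSYK_1 replicate 1 the first of these was -0.76 and -0.74 (limma adjusted p = 0.0675 and 0.0722). In U937 IRF1 ran from 5.70 to 6.01. In HL-60 the controls spread widely, at 5.39, 5.63 and 4.95, against 5.73 and 5.74 with shSYK_1. The HL-60 difference of 0.41 (limma adjusted p = 0.0400) was 0.22 without the control at 4.95, replicate 3 (limma adjusted p = 0.147). Its call was also lost without HL-60 shLuc replicate 1, either HL-60 shSYK_1 array or either U937 shSYK_2 array. It was not called with quantile normalisation (0.35, limma adjusted p = 0.0548) or with the conflicting array placed in shSYK_1 (0.30, limma adjusted p = 0.127). The pooled response of MOLM-14 minus HL-60 was -0.57 (limma adjusted p = 0.0411), and was -0.38 without that control (limma adjusted p = 0.0659) and -0.57 with the conflicting array placed in shSYK_1 (limma adjusted p = 0.114). It lost its call without any 1 of 16 of the 21 arrays, and kept it without U937 shLuc replicate 3, either U937 shSYK_1 array, HL-60 shLuc replicate 2 or HL-60 shSYK_2 replicate 1.

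IRF2, the competitor of IRF1, rose in HL-60 with shSYK_1. The HL-60 arrays read 5.63, 5.81 and 5.52 with shLuc, 6.29 and 6.26 with shSYK_1, and 5.73 and 5.83 with shSYK_2. The shSYK_1 arrays stood above all others, a rise of 0.63 (1.54-fold, SE 0.108, limma adjusted p = 3.58e-04), and the hairpins differed by -0.50 (limma adjusted p = 0.00710). That difference lost its call without HL-60 shSYK_1 replicate 1 (-0.48, limma adjusted p = 0.0520) or the conflicting array (-0.44, limma adjusted p = 0.0664). In MOLM-14 and U937 IRF2 passed no knockdown test, and its lowest value there was 5.37. The IRF2 average over the lines, 0.15 (limma adjusted p = 0.0331), lost its call without any 1 of 10 arrays and with median centring, and had a value of 0.13 to 0.15 in those cases. With the conflicting array placed in shSYK_1 it was 0.13 and not called (limma adjusted p = 0.226). The arrays were MOLM-14 shLuc replicate 2, MOLM-14 shSYK_1 replicate 1, MOLM-14 shSYK_2 replicate 2, U937 shLuc replicate 2, U937 shSYK_1 replicate 1, U937 shSYK_2 replicate 2, HL-60 shLuc replicates 1 and 3, HL-60 shSYK_1 replicate 1 and HL-60 shSYK_2 replicate 2.

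IRF3, the latent sensor-activated factor, was between 5.57 and 6.35 on all 21 arrays and passed no comparison. Its average change with SYK knockdown was -0.05 (95% interval -0.20 to 0.11). IRF4, the factor of lymphoid and dendritic cells, was dim on its 3 probe sets, which ranged from 3.40 to 4.06, 2.66 to 3.09 and 2.12 to 2.68. RMA values carry no detection call, so IRF4 RNA at these intensities cannot be told apart from none. One IRF4 probe set, the second of these ranges, had an average change of -0.14 (limma adjusted p = 0.0121) and an HL-60 change of -0.25 (limma adjusted p = 0.0122). The HL-60 value lost its call when HL-60 shLuc replicate 2 was left out (-0.24, limma adjusted p = 0.0531), and the other 2 IRF4 probe sets were not called in any knockdown comparison.

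Counted over the family, 5 of 11 IRF probe sets were called for the average knockdown (IRF2, IRF5 and IRF9 higher, IRF8 and 1 IRF4 probe set lower), where 30.7% of all probe sets were called. In single lines the counts were 3 of 11 in MOLM-14 (16.8% of all probe sets), 2 of 11 in U937 (12.2%) and 5 of 11 in HL-60 (21.3%). IRF8 and IRF9 were the members called in all 3 lines. By single hairpin, shSYK_1 called 3 of 11 in MOLM-14 (21.6%), 2 of 11 in U937 (13.9%) and, in HL-60, 6 of 11 (20.5%). With shSYK_2 the counts were 2 of 11 (14.4%), 2 of 11 (13.8%) and 4 of 11 (19.2%) in the same order of lines. For shSYK_1 averaged over lines 5 of 11 were called (31.2%), and for shSYK_2 3 of 11 (27.3%), namely IRF5, IRF8 and IRF9. The IRF5 value for shSYK_2, 0.26, was 0.20 without the conflicting array (limma adjusted p = 0.0791), 0.20 with it placed in shSYK_1 (limma adjusted p = 0.194) and 0.26 without MOLM-14 shSYK_2 replicate 2 (limma adjusted p = 0.0505). The hairpins differed from each other on average in 3 of 11 (31.8%), namely IRF2, IRF5 and IRF9, each lower with shSYK_2. IRF8 was higher with shSYK_2 by 0.10 on average, not called (limma adjusted p = 0.0945). Without the conflicting array this IRF8 difference was 0.12, and whether it was called depended on that array. With the conflicting array placed in shSYK_1 the IRF2 value was not called (-0.18, limma adjusted p = 0.251). Within a line the hairpins differed in 2 of 11 in MOLM-14 (22.5%), 1 of 11 in U937 (19.7%) and 3 of 11 in HL-60 (19.3%). Responses differed between MOLM-14 and U937 in 1 of 11 (2.59%), between MOLM-14 and HL-60 in 4 of 11 (6.41%) and between U937 and HL-60 in 1 of 11 (5.19%). With shSYK_1 alone these counts were 1 of 11 (6.85%), 5 of 11 (5.78%) and 2 of 11 (7.11%), and with shSYK_2 alone 3 of 11 (4.4%), 3 of 11 (8.06%) and 1 of 11 (6.61%), in the same order of pairs. The IRF counts lay near the percentage over all probe sets in several of these comparisons, such as 2 of 11 in U937. The comparisons with shLuc and the responses of a line share its control arrays, and the hairpin differences share the SYK hairpin arrays with them.

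**Figure D2:**
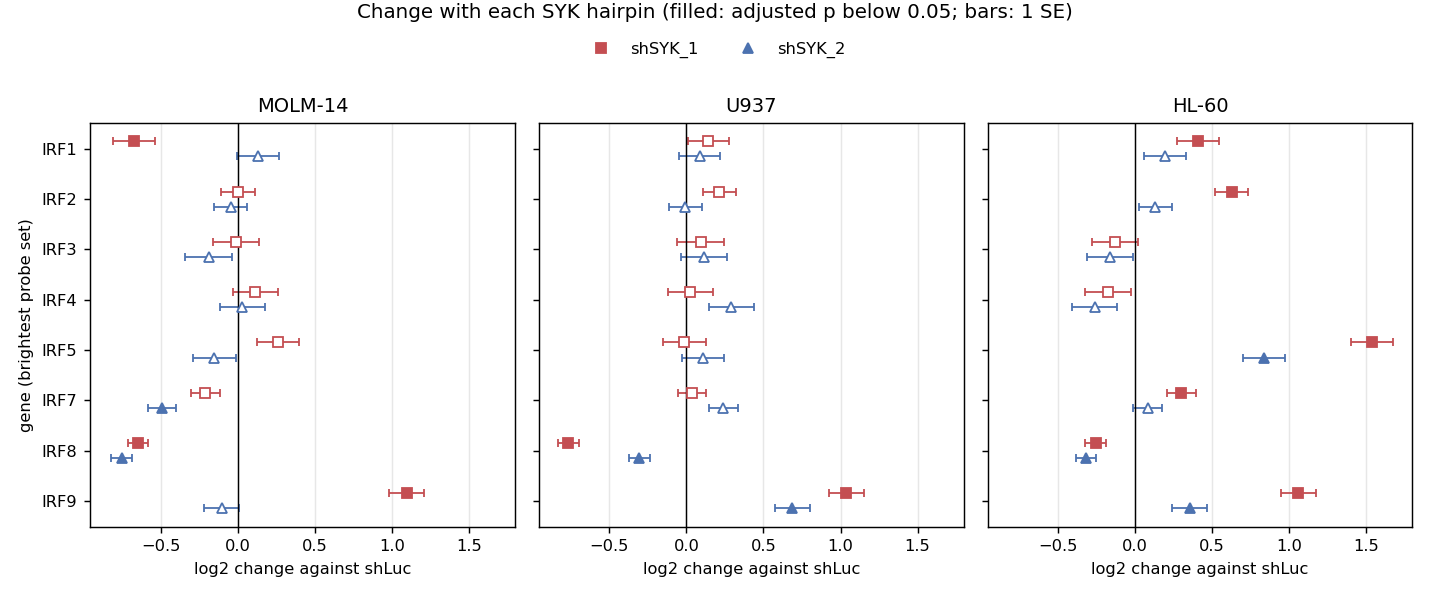
Log2 change against shLuc (horizontal axis, the same scale in each panel) of each IRF gene with shSYK_1 and shSYK_2 in the 3 lines; each gene is read on its brightest probe set, points are differences of group means (filled where limma's adjusted p was below 0.05) and bars are 1 standard error. IRF8 lies left of 0 with both hairpins in every line, IRF9 lies about 1 to the right with shSYK_1 in every line, and IRF5 lies to the right in HL-60.

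Promoter windows are shown for IRF9, IRF1 and IRF5, whose RNA moved with a hairpin or in a single line and in whose windows a searched motif was found. Each window is the 250 bases before a RefSeq start site of GRCh38.p14, written 5′ to 3′ on the gene's own strand, with the motif letters in capitals. The motifs were the ISRE core (GAAA and GAAA with any 2 bases between them), the ETS-IRF composite (GGAA and GAAA with any 2 bases between them) and the STAT-binding GAS element TTCNNNGAA, searched on both strands. The first 2 motifs differ only in their second letter, and the GAS letters read the same on both strands. Of 35116 windows of this length, 3.02% held the ISRE core, 2.41% the composite and 6.57% GAS. The IRF9 window lies at chr14:24161015-24161264 on the + strand, with a GAS match at -63 to -55. The IRF1 window lies at chr5:132490774-132491023 on the - strand, with a GAS match at -124 to -116. The IRF5 window, the one of 4 with a match, lies at chr7:128940420-128940669 on the + strand, and its capitals are the composite read on the other strand, at -33 to -24.
IRF9: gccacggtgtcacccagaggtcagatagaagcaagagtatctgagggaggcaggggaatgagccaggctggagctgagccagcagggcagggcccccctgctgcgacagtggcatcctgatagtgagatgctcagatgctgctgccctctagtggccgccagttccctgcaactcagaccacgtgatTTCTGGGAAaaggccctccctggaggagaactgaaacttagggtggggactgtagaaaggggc
IRF1: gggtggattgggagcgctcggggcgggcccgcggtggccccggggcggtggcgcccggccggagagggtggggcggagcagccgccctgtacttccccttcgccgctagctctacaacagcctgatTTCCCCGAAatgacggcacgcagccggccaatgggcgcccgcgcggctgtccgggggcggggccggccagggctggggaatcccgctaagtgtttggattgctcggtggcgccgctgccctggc
IRF5: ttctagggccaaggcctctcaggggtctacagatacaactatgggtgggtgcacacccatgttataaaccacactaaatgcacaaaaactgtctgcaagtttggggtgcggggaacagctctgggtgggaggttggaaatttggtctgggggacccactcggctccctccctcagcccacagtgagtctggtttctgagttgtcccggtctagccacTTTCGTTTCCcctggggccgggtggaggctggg
The windows of IRF8 (2) and IRF4 (1) and the other 3 of IRF5 held none of these letters. The IRF8 windows lie at chr16:85902580-85902829 and chr16:85902765-85903014. Any other start site of these genes was not searched, so the absence of a match holds for these windows only. IRF2, IRF3 and IRF7 are named only. A match is a string of letters and not a measured binding site.

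The other genes of the pathway were grouped by role, on the brightest probe set of each gene. The percentages over all probe sets given beside them also count the dimmer probe sets of a gene, so the comparison is not like for like. Upstream of the IRFs, 6 of 13 measured sensors and adaptors rose and 2 fell with the average knockdown (median 0.18, against 0.00 over all probe sets, of which 14.5% rose and 16.2% fell). The risers included the RNA sensor IFIH1 (0.52), the lipopolysaccharide receptor TLR4 (0.47) and the adaptor MYD88 (0.36), and the 2 that fell were the ubiquitin ligase TRAF3 (-0.25) and the kinase IRAK1 (-0.15). Genes with small counts that are named in these lists, here IRAK1, were added after their values were seen. MYD88 rose by 0.67 in HL-60, the line in which IRF5 rose, and by 0.25 in U937, where IRF5 was not called. Its difference of 0.16 in MOLM-14 was not called (limma adjusted p = 0.0748). Whether the MYD88 and IRF5 changes are linked was not tested. Of 12 interferon receptor, JAK and STAT genes 4 rose and 1 fell (median 0.05). The risers were the interferon-gamma receptor chain IFNGR1 (0.50), the kinases TYK2 (0.30) and JAK1 (0.23), and STAT3 (0.27). IFNAR2, a chain of the type I interferon receptor, fell by 0.27 on average and by 0.66 with shSYK_1. Its sign was not the same in all lines. None of 10 measured interferon genes was called higher in the average of both hairpins, and IFNA10 was called lower by 0.14, at a mean log2 intensity of 2.72.

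Among targets, 12 of 29 type I interferon-stimulated genes rose, 2 fell and 15 were not called (median 0.20). IFI6, a mitochondrial interferon-induced protein, rose by 0.81, the RNA sensor OAS1 by 0.76, the ISG15-conjugating enzyme UBE2L6 by 0.59 and ISG15 by 0.37. OAS1 was dim, at a mean log2 intensity of 3.42, near the intensities of IRF4. UBE2L6 rose by 1.39 in MOLM-14 and by 0.36 in HL-60, and its value in U937 was 0.03, not called. The 2 that fell were IFITM1 (-0.15), a membrane restriction factor, and XAF1 (-0.22). With shSYK_1, the hairpin with the larger IRF9 rise, 17 of 29 rose and 3 fell (median 0.29), where 15.7% of all probe sets rose and 15.5% fell. With shSYK_2 8 rose and 2 fell (median 0.12), where 13% rose and 14.3% fell over all probe sets. XAF1 was called in opposite directions, 0.20 with shSYK_1 and -0.65 with shSYK_2. RSAD2, an antiviral enzyme, was called likewise, at -0.35 and 0.25, and these 2 were chosen after their values were seen. The direct comparison of the hairpins had 10 of 29 lower and 6 higher with shSYK_2 (median -0.19), against 17.2% and 14.5% of all probe sets. In U937 the split was 6 higher and 5 lower (5.82% and 6.41% of all probe sets), the lower ones being IFITM1 (-0.61), IFITM2 (-0.35), IFITM3 (-0.38), LY6E (-0.39) and RSAD2 (-0.48). Interferon-gamma and IRF1 targets had 7 of 21 higher and 0 lower on average (median 0.07). These 7 included the chemokine CXCL10 (0.38), which was dim, at a mean log2 intensity of 3.29. Others were the protease CASP1 (0.36), the immunoproteasome subunit PSMB9 (0.35) and the peptide-loading chaperone TAPBP (0.16). The number of risers in this list was 4 with shSYK_1 and 8 with shSYK_2 on average, with 2 and 0 lower. The 4 with shSYK_1 were near the 15.7% of all probe sets that rose. The 2 lower with shSYK_1 were the cytokine gene IL15 (-0.13) and the tRNA synthetase gene WARS1 (-0.32), and CASP1 (0.73) was the largest of its 4 risers, beside PSMB8, PSMB9 and PSMB10.

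**Figure D3:**
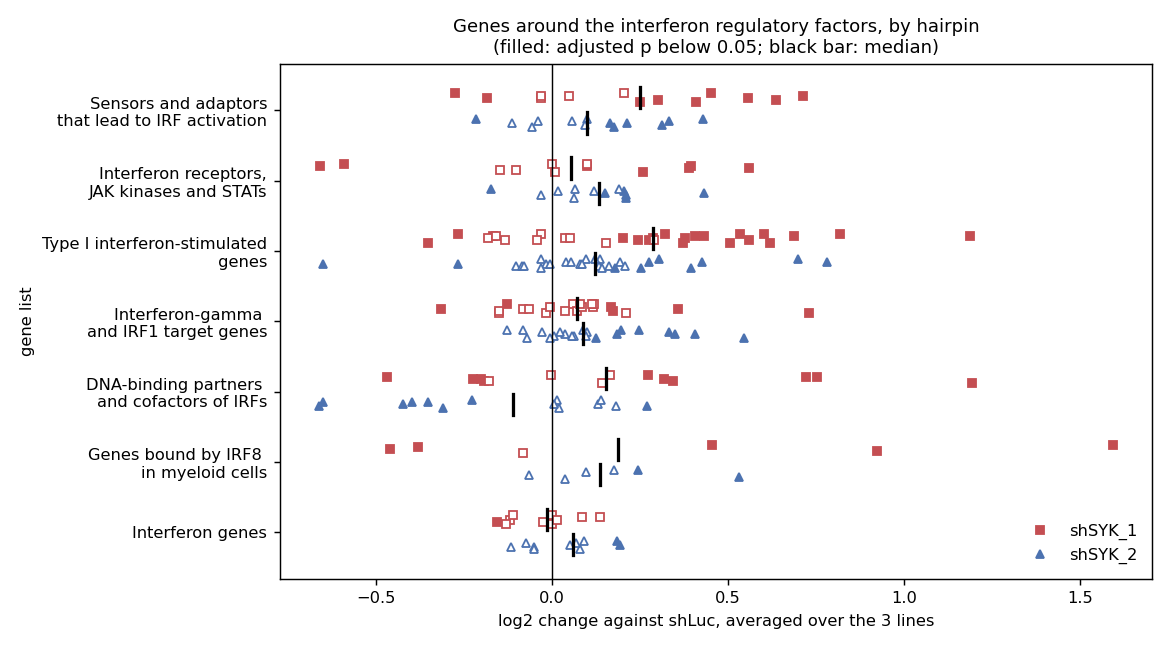
Log2 change against shLuc averaged over the 3 lines (horizontal axis) of the genes in each list (vertical axis) with shSYK_1 and shSYK_2; each symbol is a gene on its brightest probe set, filled where limma's adjusted p was below 0.05, and black bars are list medians. The type I interferon-stimulated genes have a median of 0.29 with shSYK_1 and 0.12 with shSYK_2, and the partner factors 0.15 and -0.11.

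Partner factors were split. Of 14, 4 rose and 3 fell (median 0.00), where 14.5% of all probe sets rose and 16.2% fell. JUN, a subunit of AP-1, was up by 0.61, the myeloid factor CEBPB by 0.31, BATF by 0.23 and the acetyltransferase CREBBP by 0.21. The ETS factors SPIB and ETV6 were both down by 0.43, and the lymphoid factor IKZF1 by 0.31. SPI1, whose product PU.1 binds DNA together with IRF4 and IRF8, gave -0.03 on average (limma adjusted p = 0.732) and fell by 0.23 with shSYK_2. Of 6 measured genes listed as bound by IRF8 in myeloid cells, 3 rose and 1, the phosphatase gene PTPN13, fell by 0.26 (median 0.15). CYBB, the catalytic subunit of the phagocyte oxidase, rose by 0.92, the monocyte factor KLF4 by 0.73 and the macrophage protein CD68 by 0.32. The signs of SPIB, CD68 and PTPN13 were not the same in all lines. CYBB changed by 0.26 in HL-60, 1.16 in U937 and 1.33 in MOLM-14.

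The genes whose pattern was most like each member were ranked by Pearson correlation over the 21 arrays after each line's mean was subtracted, among 7878 genes (7879 for IRF4). The arrays of a group share their hairpin, so these values are descriptions. For IRF8 the nearest were CSF2RB (r = 0.93), the shared beta chain of the GM-CSF, IL-3 and IL-5 receptors, PLAC8 (0.93) and FUT7 (0.91), a fucosyltransferase for selectin ligands. For IRF9 they were FCGR2B (0.96), an inhibitory IgG receptor whose probes can also read FCGR2A and FCGR2C, CES1 (0.96), a carboxylesterase, and CD244 (0.96), a SLAM family receptor. For IRF5 they were LPAR6, CD52 and CYTH4 (0.92 each). The number of genes with r above 0.8 was 338 for IRF9, 73 for IRF5, 32 for IRF8, 17 for IRF2, 7 for IRF1, 1 for IRF7 and 0 for IRF3 and IRF4. Between members on the same scale, IRF2 and IRF5 had r = 0.76, IRF2 and IRF9 0.60, IRF5 and IRF9 0.59 and IRF8 and IRF9 -0.59. IRF1 (GCLC, BACE1 and PBX3, 0.82 to 0.85), IRF2 (COLEC12, SLC2A3 and FCN1, 0.84 to 0.89) and IRF7 (PTPN22, HERPUD1 and GPR35, 0.79 to 0.81) had weaker nearest genes, and those of IRF3 (LZTR1, ITGAE and AGO3) and IRF4 (TMEM184C, FER and XAB2) stayed at 0.69 and below.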

How the data were processed

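RNA of 21 arrays was analysed. The authors deposited 1 intensity per probe set and array, computed by RMA according to the submitters' processing notes. The RMA version and any other upstream step were not given in the sources used here. RMA is meant to bring arrays to one distribution and compresses folds, most at low intensity, and the number of arrays limits the precision. Deposited intensities lay between 3.23 and 13025 and so on a linear scale. The plan allowed for a linear or a log2 scale, and log2 was taken here with no pseudocount. Array medians still differed, from 18.4 to 20.6, and all HL-60 arrays had lower medians than any array of the other lines.

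Of 22277 probe sets, 62 controls, 568 with several symbols and 1923 with none were left out. Symbols of 19707 were updated by gene ID through RefSeq GRCh38.p14, and 17 kept the platform's name. A limma 3.58.1 model in R 4.3.3 (lmFit, contrasts.fit, eBayes) gave each of 9 groups a mean, with 12 residual and 4.46 prior degrees of freedom; tests were two-sided. On simulated data for the average knockdown of 19724 probe sets it called 100 of 100 changed by 1, 73 of 100 changed by 0.3 and 8 unchanged ones. The _s_at probe sets can bind several transcripts.

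The members and lists were chosen with earlier results of these data known. Named were all IRF probe sets, SYK and the 3 genes most like each member among probe sets above the 40th percentile of mean intensity. Also named were up to 4 called genes per list with the largest average change and the same sign in all lines. Further list genes were named outside that rule, among them IFNAR2, SPIB, CD68 and PTPN13, whose sign differed between lines. Alternatives covered probe sets per gene, scaling, a filter on the dimmest 40%, a pseudocount of 16, a trended robust prior, array weights, fits on the compared arrays, the conflicting label, replicate blocks and leaving out each array. Replicate numbers did not pair the samples: 18 same-numbered pairs within lines correlated at -0.20 to 0.09.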

Additional observations from a re-analysis of the deposited data

Results flagged for a closer look

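The results here are differences between lines in the response to SYK knockdown, each called by limma over all probe sets, as log2 differences of the first line minus the second. For both hairpins together these were IRF7 (-0.49) in MOLM-14 against U937, IRF1 (-0.57), IRF5 (-1.13), IRF7 (-0.54) and IRF8 (-0.41) in MOLM-14 against HL-60, and IRF5 (-1.14) in U937 against HL-60. For shSYK_1 alone they were IRF1 (-0.81) in MOLM-14 against U937, IRF1 (-1.08), IRF2 (-0.62), IRF5 (-1.27), IRF7 (-0.51) and IRF8 (-0.39) in MOLM-14 against HL-60, and IRF5 (-1.55) and IRF8 (-0.51) in U937 against HL-60. For shSYK_2 alone they were IRF7 (-0.73), IRF8 (-0.45) and IRF9 (-0.79) in MOLM-14 against U937, IRF5 (-0.99), IRF7 (-0.57) and IRF8 (-0.43) in MOLM-14 against HL-60, and IRF5 (-0.73) in U937 against HL-60. The single-hairpin differences were added after the data had been seen, and they share control arrays with each other and with the pooled ones. Beside those whose dependence on single arrays is given with the results, 4 lost their call without a single array. For shSYK_1 in MOLM-14 against HL-60, IRF2 was -0.56 without HL-60 shLuc replicate 3, and it lost its call also without MOLM-14 shLuc replicate 3 or any shSYK_1 array of either line. IRF7 in the same comparison was -0.43 without MOLM-14 shSYK_1 replicate 1, and lost its call also without MOLM-14 shLuc replicate 2 or 3, HL-60 shLuc replicate 1 or 2 or either HL-60 shSYK_1 array. For shSYK_2, IRF7 in MOLM-14 against HL-60 was -0.48 without MOLM-14 shSYK_2 replicate 2. IRF5 in U937 against HL-60 was -0.55 without HL-60 shSYK_2 replicate 1, and lost its call also without U937 shLuc replicate 1 or 3 or either U937 shSYK_2 array. The groups of 2 or 3 arrays were too small for a test of single outlying arrays.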

How the results depend on the processing

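The falls of IRF8 and rises of IRF9 with both hairpins together, on average and in each line, and the HL-60 rise of IRF5, kept their direction and their call under all alternatives run. The HL-60 rise of IRF5 ranged from 0.70, as a mean of its 2 probe sets, to 1.27. Over all single probe set results, no alternative reversed a called value, and 212 of 2908 comparisons of called results lost the call. Counts of called IRF probe sets moved by over 1.5 times as follows. With arrays centred on their medians 7 were called for U937 against HL-60 controls. With quantile normalisation 5 were called for the hairpin difference. The response of U937 minus HL-60 had 2 called with quantile normalisation, the mean of a gene's probe sets, the dimmest 40% left out, log2(value + 16) or a trended robust prior. The response of MOLM-14 minus U937 had 0 called with that prior or with the conflicting array placed in shSYK_1. Leaving out single arrays gave 0 to 1 called for MOLM-14 minus U937 and 1 to 2 for U937 minus HL-60. With the replicate number within each line as a block, 3 were called on average and 3 in HL-60, with 0 for MOLM-14 minus U937 and 1 for MOLM-14 minus HL-60; with a block across lines 3 were called on average. With the HL-60 shSYK_2 numbers crossed within the block, a choice made after seeing the data, the counts were 3, 3, 0 and 1. The samples share only a number, so the blocks mark no known pairing. With the conflicting array in shSYK_1, the HL-60 hairpin differences of IRF5 (-0.70, limma adjusted p = 0.201) and IRF2 (-0.26, limma adjusted p = 0.670) and the HL-60 fall of IRF8 with shSYK_2 (-0.25, limma adjusted p = 0.172) were not called, and the cause was not tested. Intensities near those of IRF4 carry little signal over background and limit what can be read there.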
